A study of Mus musculus with 16 samples.

Results

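The genes described here encode the proteins of the cytosolic ribosome, as measured in cultured mouse endothelial cells with and without VE-cadherin. They were taken as all genes with a probe set of a single symbol made of Rpl or Rps and a digit, or Rplp0, Rplp1, Rplp2 or Rpsa, without the Rps6k kinases and pseudogenes. This gave 37 genes, with 51 probe sets, of 13674 genes with a single symbol on the arrays, and each gene was represented by 1 probe set. The rule also took in 5 genes whose proteins are not standard subunits of the ribosome. These were Rps19bp1, a nucleolar protein that binds Rps19 and is known as a regulator of SIRT1, and the paralogues Rpl7l1, Rps27l, Rps4l and Rpl39l.

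Cytosolic ribosomes are built from a small subunit, which reads the mRNA, and a large subunit, which joins amino acids. Their proteins are needed in equal numbers, their mRNAs are among the most abundant of a growing cell, and cells that stop dividing generally make fewer ribosomes. The mRNAs of ribosomal proteins begin with a terminal oligopyrimidine (TOP) tract, a cytosine followed by a run of pyrimidines, through which the TOR pathway controls their translation. VE-cadherin (VEC, encoded by Cdh5) is the adhesion protein of endothelial adherens junctions, and contact between confluent endothelial cells is known to restrain their growth.

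The cells were endothelial lines from mouse embryonic stem cells in which both copies of the VE-cadherin gene carried a null mutation, and they were VEC-positive or VEC-null and confluent or sparse. This gave 4 conditions, VEC-positive confluent, VEC-positive sparse, VEC-null confluent and VEC-null sparse, and all were starved for 36 h in MCDB 131 medium with 1% bovine serum albumin. The sources used here do not state how the VEC-positive cells acquired VEC or how many clones stand behind either line. Each condition was 1 cRNA sample made from 15 µg of total RNA and hybridised to 2 copies each of the arrays MG_U74Av2 (chip A) and MG_U74Bv2 (chip B), 16 arrays in all. The p-values below therefore measure only the technical spread between copies of a cRNA sample, and differences between cultures are not covered. In bulk RNA of this kind, a change in the share of some cells and a change in RNA per cell cannot be told apart.

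Values are MAS5 signals, a linear brightness per probe set, scaled by the authors to 500. Log2 differences are of the signal plus 50, with their standard error (SE), and a difference passed at an adjusted p below 0.05 in limma over all 14246 probe sets kept by a filter on dim ones. The number of arrays limits the precision. Array medians lay between 140.7 and 175.05 on chip A and between 224 and 251.4 on chip B, and copies of a sample correlated with r of 0.951 to 0.989 across probe sets. Cdh5 read 2607 and 2526 in VEC-positive confluent cells, 1464 and 1334 in VEC-positive sparse cells, 2707 and 2509 in VEC-null confluent cells and 1255 and 1282 in VEC-null sparse cells. It did not separate the lines, and since the sources used here do not say whether its probe set lies in the deleted stretch, it does not check the labels. Of 15 endothelial marker genes 14 were measured, and all 14 passed the filter, though Pecam1 stayed between 51.1 and 286.8. The summed signals of 6 embryonic stem cell markers lay between 308.4 and 471.6. Those of 8 smooth muscle and fibroblast markers lay between 889.5 and 1080 in every condition, but single markers moved. Acta2 read 6.4 and 4.7 in VEC-positive confluent cells, 129 and 137 in VEC-positive sparse cells, 120.1 and 125 in VEC-null confluent cells and 358 and 385 in VEC-null sparse cells. Pdgfrb read 311 and 344 in VEC-null confluent cells and 8.6 to 16.5 elsewhere, and Dcn was higher in VEC-positive cells, with 571 and 602 against 242 and 220.4 when confluent. Of the 4 of these markers that were tested, 2 were lower and 1 higher in VEC-positive than in VEC-null confluent cells, each by at least 1 on the log2 scale. The 4 measured blood markers summed to 837 and 1192 in VEC-null confluent cells, mainly through Cd68, and to 399 to 538 elsewhere. The 5 epithelial markers summed to 1241 and 1391 in VEC-positive sparse cells, where Krt19 read 862 and 948, and to 354.5 to 616.8 elsewhere. The part of these markers in the results below was not tested.

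The 30 bases around the annotated start are printed for 8 members, chosen with their values known, to show starts with and without a pyrimidine tract among genes that fell and genes that did not. All are from RefSeq on assembly GRCm38.p6, read 5′ to 3′ along the gene's strand, with the first transcribed base at position 16. Capitals mark the longest pyrimidine run that reaches within 5 bases of the start. Rpl13a (chr7:45128731-45128760, minus strand) had the largest response of all members to density in VEC-positive cells, and Rps18 (chr17:33955651-33955680, minus strand), Rps10 (chr17:27635230-27635259, minus strand) and Rpl7a (chr2:26910792-26910821, plus strand) also fell and also have a long run. Rps19 (chr7:24884577-24884606, plus strand) and Rpsa (chr9:120127751-120127780, plus strand) fell by more than 1 as well and have only short runs at the start listed. Rps27 (chr3:90213634-90213663, minus strand) carries a tract but passed in no comparison, and Rpl22 (chr4:152325711-152325740, plus strand), which has no run there, moved the other way. Several starts are listed for 7 members, among them Rps19 with 3 and Rpl22 with 2. Only the first listed start of each gene was used, and the others were not examined.
Rpl13a: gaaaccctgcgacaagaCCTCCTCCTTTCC
Rps18: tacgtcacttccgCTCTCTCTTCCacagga
Rps10: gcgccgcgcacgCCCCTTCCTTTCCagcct
Rpl7a: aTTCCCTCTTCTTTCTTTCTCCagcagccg
Rps19: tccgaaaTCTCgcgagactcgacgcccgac
Rpsa: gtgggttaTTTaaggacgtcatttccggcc
Rps27: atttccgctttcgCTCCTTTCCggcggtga
Rpl22: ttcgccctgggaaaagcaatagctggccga

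A run of at least 7 pyrimidines reaching within 5 bases of the start was present in 10 of the 30 members with a RefSeq promoter (33.33%), against 14.05% of 27025 promoters. The run could end before the first transcribed base, as in Rpl10a, Rpl39l and Rps27l, so not every run counted is a TOP tract. Within 40 bases on either side of the start, a run of at least 7 pyrimidines was found in 70% of members and 42.8% of all promoters. Among short motifs searched on both strands over the 300 bases of the promoter table, the Ets motif CCGGAAGT was in 16.67% of members against 4% of all promoters. The YY1 motif AAGATGGC was in 13.33% of members against 2.88%, and the GC box GGGCGG in 60% against 35.91%. The TATA box TATAAA was in 10% against 14.16%, and the E box CACGTG, the core of Myc binding sites, in 6.67% against 7.24%. These are matches of letters and not binding sites. The tested members with such a run at or near the start (7 genes, Rpl10a among them) had a median log2 difference of −1.17 between confluent and sparse VEC-positive cells. The 16 with a shorter run had −0.89. Their ranges overlapped, from −2.06 to 0.04 and from −1.84 to 0.58.

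Of the 37 genes, 27 passed the filter, which asked that the mean log2 value of at least 1 condition lie above the chip's median (159.4 signal units for chip A, 235.1 for chip B). For 24 of them every condition lay above it. Rps13 and Rps29 did so in 3 conditions and Rpl32 in 1, so these dim genes, with signals between 42.8 and 489.9, could enter through the condition where they were high. The other 10 genes, Rpl27, Rpl35a, Rpl38, Rpl39, Rpl39l, Rps14, Rps15, Rps20, Rps27l and Rps4l, never exceeded a signal of 223.2 and were not tested. Weak probes and scarce mRNA cannot be told apart in these 10 genes.

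**Figure D1:**
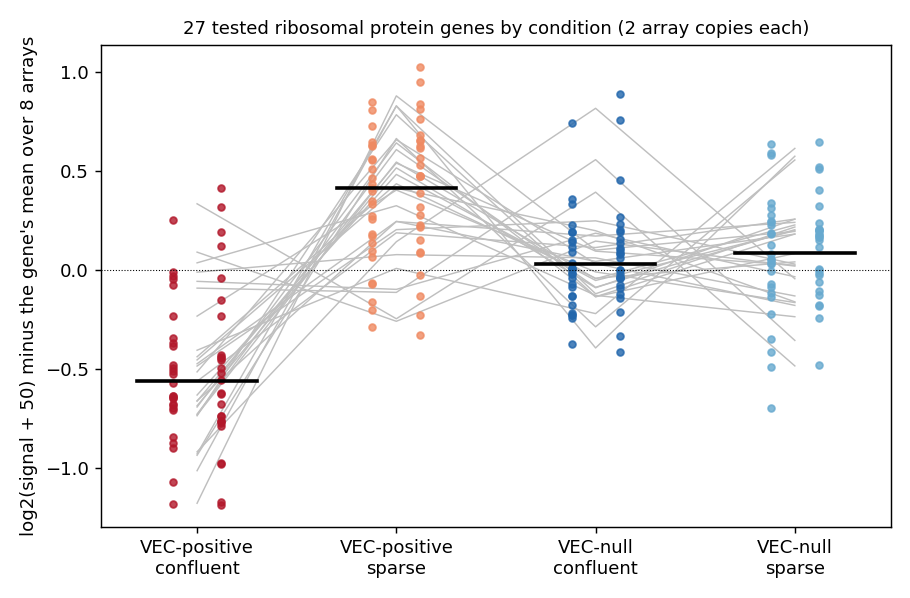
Each point is the log2(signal + 50) of 1 of the 27 tested genes on 1 array copy, relative to the gene's mean over its 8 arrays (vertical axis), in the 4 conditions (horizontal axis). Grey lines join the condition means of a gene and black bars are medians over genes. The VEC-positive confluent condition had the lowest mean for 21 of 27 genes and the VEC-positive sparse condition the highest for 19 of 27.

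Ribosomal protein genes were lower in confluent than in sparse VEC-positive cells, in both subunits. Of 27 tested genes 22 fell and 1 rose, with a median log2 difference of −0.90. Over all probe sets tested 23.1% were lower and 24.6% higher, with a median of 0.02. A fall of at least 1 on the log2 scale was seen for 13 genes, against 7.22% of all probe sets. Both confluent copies lay below both sparse copies for 22 of the 27 genes, which was the case for 36.5% of all probe sets.

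In the small subunit, 11 of 13 tested genes fell and 0 rose. Rps19, the gene most often mutated in Diamond-Blackfan anaemia, read 1793 and 1662 in confluent VEC-positive cells, against 5175 and 6838 in sparse ones, a log2 difference of −1.76 ± 0.15 (SE; limma, adjusted p = 1.1e-05). All 4 arrays of the VEC-null cells lay between these groups, at 2857 and 3278 when confluent and 3396 and 4428 when sparse. Rps3, which lines the mRNA entry channel and also acts in DNA repair, read 4090 and 3940 in confluent and 11171 and 12054 in sparse VEC-positive cells, a difference of −1.52 ± 0.07.

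Rpsa, a small-subunit protein also known as the laminin receptor precursor, read 2015 and 1909 in confluent VEC-positive cells, against 5972 and 6118 in sparse ones. Both confluent copies were below all 6 other arrays. Its log2 difference was −1.60 ± 0.08 (limma, adjusted p = 2.2e-07), a 3.03-fold difference. Rps10 fell by 1.33, Rps7 by 1.28 and Rps18 by 1.20 on the same log2 scale, each with a SE of at most 0.09. Rps13, measured by a dim probe set, fell by 1.06 ± 0.23, with 88.7 and 122 in confluent and 270 and 274 in sparse VEC-positive cells. Rps3a1, Rps4x, Rps28 and Rps24 fell by 0.64 to 0.87. Rps27 and Rps29 did not pass, with differences of 0.04 and 0.35. Rps27 read 687 and 706.5 in confluent and 693 and 659 in sparse VEC-positive cells, and 806 and 861.5 in confluent and 723.5 and 694 in sparse VEC-null cells, so only the VEC-null confluent copies stood slightly above the rest.

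In the large subunit, 9 of 12 tested genes fell and 1 rose. Rpl13a, which in human cells also represses translation of inflammatory mRNAs when released from the ribosome, read 530.6 and 534.7 in confluent VEC-positive cells, against 2261 and 2493 in sparse ones. The difference of −2.06 ± 0.09 was a 4.16-fold one (limma, adjusted p = 1.4e-07) and the largest fall of the 27 genes. Rpl19, Rpl8, Rpl10a and Rpl7a fell by 1.34, 1.20, 1.17 and 1.11. Rplp0, the scaffold of the ribosomal stalk that recruits elongation factors, read 10832 and 11399 in confluent and 21261 and 20446.5 in sparse VEC-positive cells, a log2 difference of −0.90 ± 0.07. Rpl7, Rpl6 and Rpl41 fell by 0.87, 0.75 and 0.29, and Rpl37a and Rpl32 did not pass, at −0.09 and 0.02. The confluent VEC-positive copies of Rpl37a disagreed, at 2660 and 4233, on either side of the sparse ones at 3537 and 3608.5.

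Of the proteins that are not standard subunits, Rps19bp1 read 431.3 and 329.4 in confluent VEC-positive cells, against 1502 and 1463 in sparse ones, a difference of −1.84 ± 0.15 (limma, adjusted p = 6.3e-06). It is measured on chip B. Its fall thus rests on other arrays than those of the other 26 tested genes, but on the same cRNA samples.

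The VEC-positive confluent arrays also differed from the other 6 chip A arrays at the bright end of the scale. Their 99th percentile was 6658 and 6773, against 7384 to 8958, and their Gapdh control probe sets read 12788 and 12920, against 16729 to 21421. The ratio of 3′ to 5′ control signals, a sign of RNA integrity, was also raised in part. For actin on chip A it was 1.33 and 1.26, against 1.11 to 1.25 on the other 6 arrays, and for Gapdh on chip B it was 1.23 and 1.14, against 0.91 to 1.00. For Gapdh on chip A and actin on chip B the ranges overlapped. The part of these ratios in this and the other results that rest on VEC-positive confluent cells was not tested. Among 19 ribosomal protein genes with a mean signal of at least 2000 on chip A, the median difference between confluent and sparse VEC-positive cells was −1.11, against −0.16 for 913 probe sets of other genes of that brightness. Among 8 ribosomal protein genes of at least 10000 it was −0.73, against −0.29 for 47 other probe sets. With quantile normalisation, which gives every array the same distribution of values, 21 genes fell, their median was −0.68, and those lower by at least 1 numbered 7 rather than 13. Endothelial marker signals summed to 54396 and 55763 in confluent and 26812 and 29645 in sparse VEC-positive cells, and their part in the result was not tested.

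In VEC-null cells, density had no common direction across these genes. Of 27 tested genes 9 were lower and 5 higher in confluent than in sparse cells, against 23.5% lower and 23.2% higher of all probe sets, and the median was −0.08. No gene changed by 1 or more, against 7.41% of all probe sets lower and 9.1% higher by that much. With an offset of 0 in place of 50, 1 gene was lower and 3 were higher by at least 1. Rpsa and Rps19bp1 fell in this line too: Rpsa read 3204 and 3005 in confluent and 5735 and 5474 in sparse VEC-null cells, a log2 difference of −0.84 ± 0.08. Rps19bp1 read 616 and 597.5 in confluent and 1291 and 1180.0 in sparse VEC-null cells, a difference of −0.97 ± 0.15 (limma, adjusted p = 0.00041). For both genes all confluent copies lay below all sparse copies of the same line.

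The remaining falls in VEC-null cells were small for standard subunits, from 0.22 for Rps3 to 0.35 for Rpl8. Rpl13a, with the largest response in the other line, read 1377 and 1349 in confluent and 1449 and 1468 in sparse VEC-null cells and did not pass (−0.09 ± 0.09; limma, adjusted p = 0.43). Rplp0 read 19516 and 20110.1 in confluent and 21335 and 20257 in sparse VEC-null cells, where the pairs of copies were separated by less than either spread, and it did not pass (−0.07 ± 0.07). By the probe sets used, the genes that rose were Rpl32, Rpl22, Rps13, Rps3a1 and Rps28, by 0.91, 0.88, 0.86, 0.36 and 0.22. Rpl32 read 142.4 and 204 in confluent and 42.8 and 98.6 in sparse VEC-null cells. It passed the filter only through the VEC-null confluent condition, so the filter itself favoured this rise. The counts of lower and higher genes moved when single copies were left out. Without the first VEC-null confluent copy 5 genes fell. Those that rose numbered 2 without the second VEC-null confluent copy and 3 without the first VEC-null sparse copy.

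**Figure D2:**
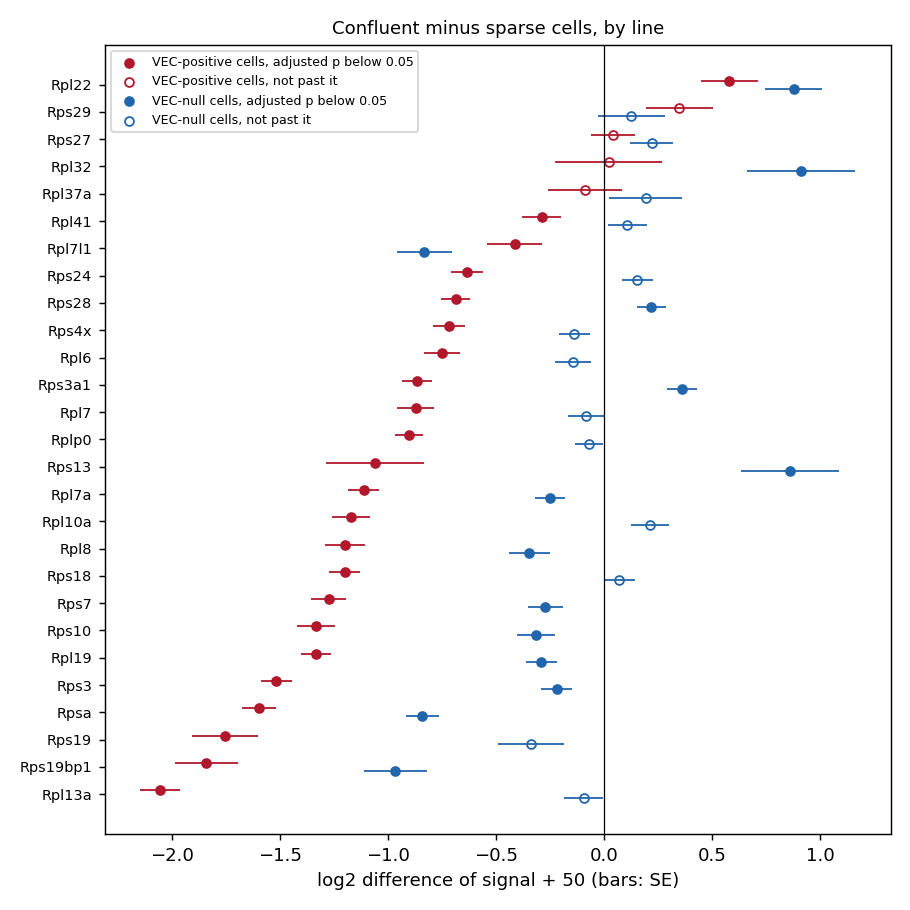
Log2 difference between confluent and sparse cells (horizontal axis) for each of the 27 tested genes (vertical axis), in VEC-positive cells (red) and VEC-null cells (blue). Bars are SE and filled points passed an adjusted p below 0.05. The medians were −0.90 in VEC-positive cells and −0.08 in VEC-null cells.

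Whether the lines responded differently to density was itself tested, as an interaction. It was negative, that is a response lower in VEC-positive than in VEC-null cells, for 21 of 27 genes, and positive for 0 (1 at an unadjusted p below 0.05 in limma), against 14.1% and 14.6% of all probe sets. The median was −0.86 for the ribosomal protein genes and 0.01 for all probe sets tested, and 10 genes reached −1, against 6.34%. The largest differences were those of Rpl13a (−1.96 ± 0.13; limma, adjusted p = 1.8e-05), the dim Rps13 (−1.92 ± 0.32), Rps19 (−1.42 ± 0.22), Rpl10a (−1.38 ± 0.12) and Rps3 (−1.30 ± 0.10). Rps18, Rps3a1, Rpl19, Rps10 and Rps7 followed, from −1.27 to −1.005.

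Of the genes that fell in both lines, all but Rpl7l1 still differed between them. For Rpl7l1 the interaction was positive and did not pass (0.42 ± 0.18; limma, adjusted p = 0.11). The interaction was −0.76 ± 0.11 for Rpsa and −0.87 ± 0.21 for Rps19bp1, so the fall was larger in VEC-positive cells for each. Among the large-subunit genes 9 of 12 had a negative interaction and among the small-subunit genes 11 of 13. The 6 genes that did not pass were Rpl32, Rpl22, Rpl37a, Rps27, Rps29 and Rpl7l1, from −0.89 to 0.42. With quantile normalisation the median was −0.60, with 18 genes lower and 5 of them by at least 1. At or above a signal of 10000 the 8 ribosomal protein genes had a median of −0.81, and the 47 probe sets of other genes shared this direction, with 32 lower and a median of −0.47. Above 2000 the median was −0.86 for the 19 ribosomal protein genes and −0.09 for the 913 other probe sets.

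Set against VEC-null cells at the same density, ribosomal protein genes were lower in VEC-positive cells when confluent. Of 27 genes 20 were lower and 0 higher (also 0 higher at an unadjusted p below 0.05 in limma), against 16.8% and 16.2% of all probe sets, with a median of −0.60 beside −0.03. Of the 20, 2 were lower by at least 1, against 3.62% of all probe sets. Both VEC-positive copies lay below both VEC-null copies for 23 genes, against 35.5% of all probe sets. The size was alike for many genes: 17 of the 20 lay between −0.40 and −0.83.

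Beyond that range were Rps13 and Rpl13a, and Rps24 at −0.22. Rpl13a read 530.6 and 534.7 in VEC-positive confluent cells, against 1377 and 1349 in VEC-null confluent ones (−1.28 ± 0.09; limma, adjusted p = 1e-05). Rps13 read 88.7 and 122 against 438.6 and 489.9 in the same groups (−1.73 ± 0.23), and the VEC-positive copies were below the chip's median. Rplp0 read 10832 and 11399 in VEC-positive confluent cells, against 19516 and 20110.1 in VEC-null confluent ones, a 1.78-fold difference and a gap wider than the spread of either pair. Rps28 and Rps18 were lower by 0.73 and 0.76.

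The genes that did not pass were Rpl41, Rpl22, Rpl37a, Rpl7l1, Rps29, Rps27 and Rpl32. Rpl41, which encodes an unusually short and basic peptide, read 19023 and 21346 in VEC-positive confluent and 17918 and 18040.2 in VEC-null confluent cells (0.16 ± 0.09). At signals of at least 10000 the median here was −0.62 for the 8 ribosomal protein genes and −0.31 for the 47 other probe sets, of which 27 were lower and 5 higher. Above 2000 it was −0.60 for the 19 genes and −0.06 for the 913 other probe sets. With quantile normalisation 17 genes were lower and 1 higher, with a median of −0.45.

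In sparse cells, ribosomal protein genes were more often higher than lower with VEC. Of 27 genes 13 were higher and 1 lower in VEC-positive than in VEC-null cells, against 18.3% higher and 20.6% lower of all probe sets, and the median was 0.26 beside −0.03. Both VEC-positive copies lay above both VEC-null copies for 19 genes, against 33.1% of all probe sets. None reached 1 in either direction, a size that 5.43% of all probe sets reached upwards and 4.27% downwards. At signals of at least 10000 on chip A, 3 of 8 ribosomal protein genes were higher and 0 lower, with a median of 0.22. Of the 47 other probe sets of that brightness, 18 were higher and 5 lower, with a median of 0.14. Above 2000, 12 of 19 ribosomal protein genes were higher (median 0.39), against 311 higher and 247 lower of 913 other probe sets (0.03).

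Rpl10a, by the probe set used, read 7723 and 8910.1 in VEC-positive sparse cells, against 4834 and 4423 in VEC-null sparse ones, a log2 difference of 0.84 ± 0.09 (limma, adjusted p = 7.5e-05). Rps3 was higher by 0.70 ± 0.07, Rpl13a by 0.68 ± 0.09 and Rps19 by 0.61 ± 0.15. For Rpl13a the sparse VEC-positive copies, at 2261 and 2493, were above all other arrays, as its confluent VEC-positive copies were below all others. Rplp0, Rpl6 and Rps4x differed by 0.00, −0.07 and 0.06 and did not pass, so their low value in VEC-positive confluent cells stood alone among the 4 conditions.

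**Figure D3:**
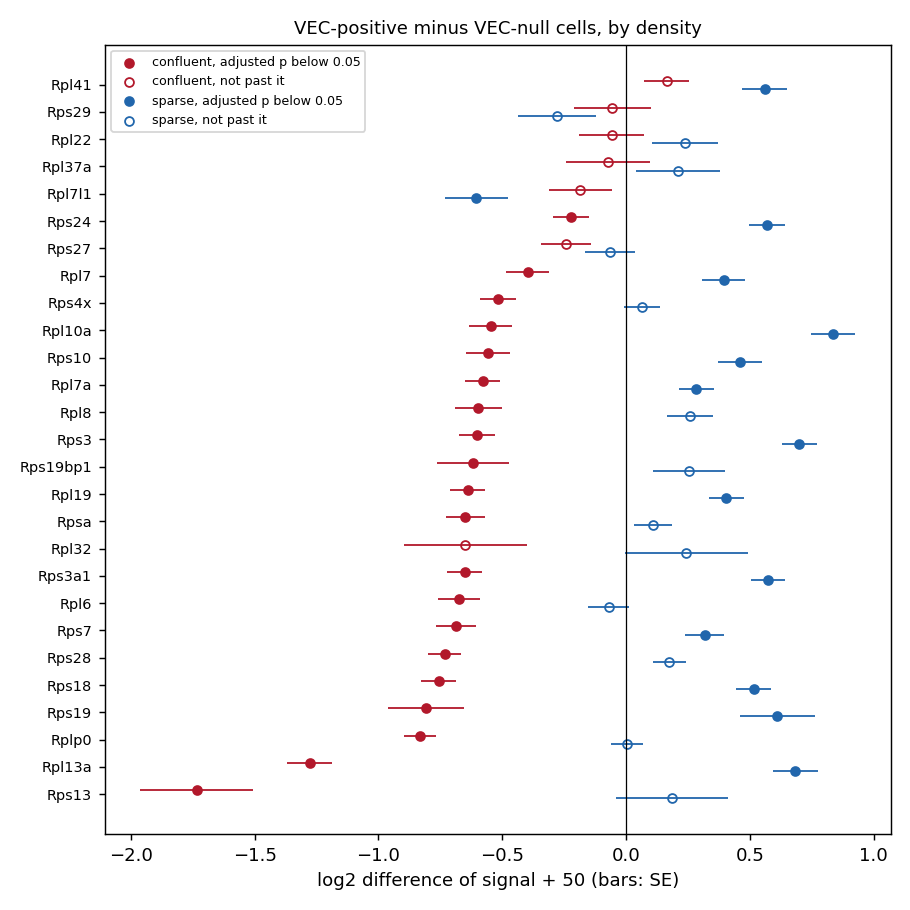
Log2 difference between VEC-positive and VEC-null cells (horizontal axis) for each of the 27 tested genes (vertical axis), in confluent cells (red) and sparse cells (blue). Bars are SE and filled points passed an adjusted p below 0.05. In confluent cells 20 genes were lower, and in sparse cells 13 were higher and 1 lower.

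**Figure D4:**
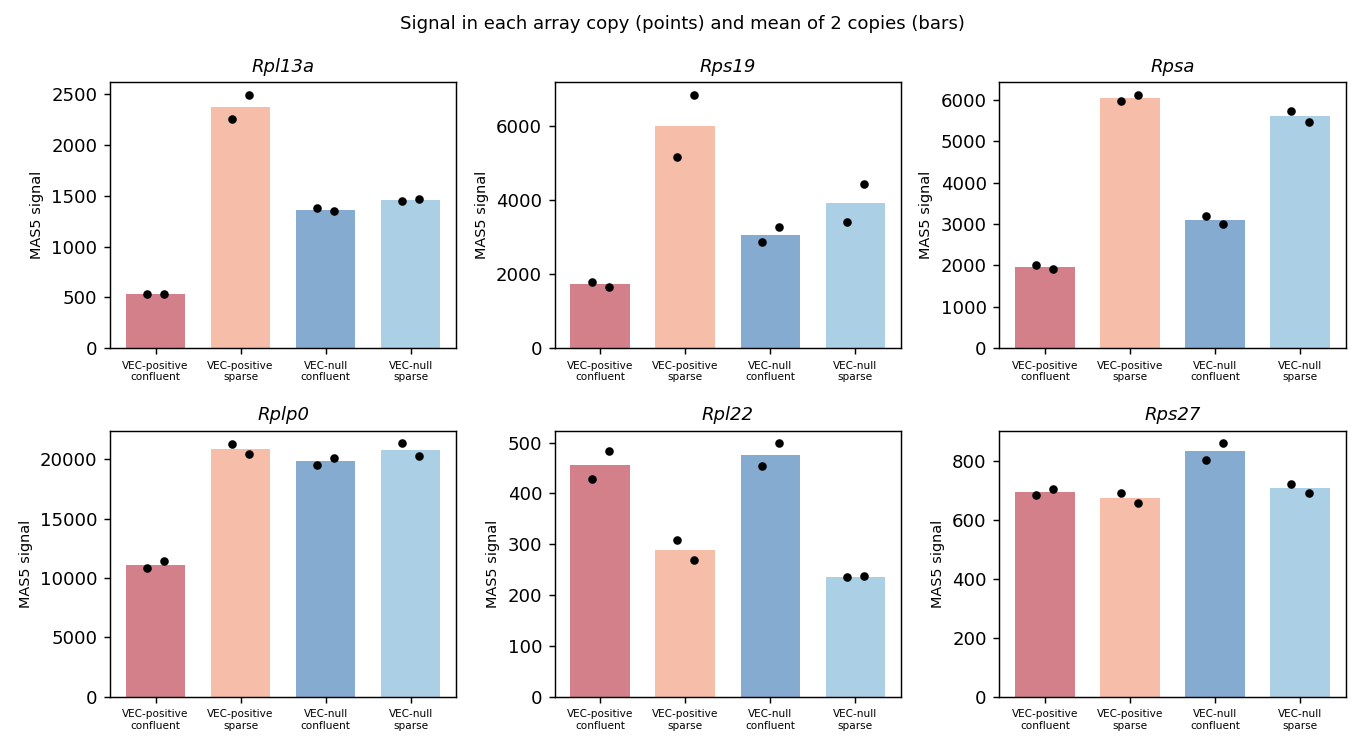
MAS5 signal (vertical axis, from 0) of 6 genes on each array copy (points), with the mean of 2 copies (bars), in the 4 conditions (horizontal axis). Rpl13a, Rps19, Rpsa and Rplp0 were lowest in VEC-positive confluent cells, Rpl22 was higher in confluent cells of both lines, and Rps27 passed in no comparison.

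Rpl22 was the member with the opposite response. Its protein binds RNA and is dispensable for general translation in mice. It read 428 and 484 in confluent and 308 and 269 in sparse VEC-positive cells (0.58 ± 0.13; limma, adjusted p = 0.0051), and 455 and 498.5 in confluent and 235 and 238 in sparse VEC-null cells (0.88 ± 0.13). Confluent copies were above sparse ones in both lines, and the interaction did not pass (−0.30 ± 0.19). A second probe set of the gene, at 100.3 to 163, was below the filter.

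The paralogue Rpl7l1, whose product is related to Rpl7, also differed from the standard genes. It was lower in VEC-positive than in VEC-null sparse cells, with 309 and 350 against 514 and 540.4 (−0.61 ± 0.13; limma, adjusted p = 0.0042), where Rpl7 was higher by 0.39 ± 0.09. It fell with density in both lines, by 0.41 in VEC-positive and 0.83 in VEC-null cells. Other paralogue pairs could not be set side by side, since Rps27l, Rps4l and Rpl39l were below the filter.

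Several genes have further probe sets. The second probe set of Rpl10a gave −1.09 for density in VEC-positive cells and −0.62 for the interaction, both past the threshold, beside −1.17 and −1.38 for the probe set used. It gave −0.20 for VEC in confluent cells and did not pass (limma, adjusted p = 0.093), beside −0.55, and 0.42 for VEC in sparse cells, beside 0.84. For density in VEC-null cells it gave −0.47 and passed (adjusted p = 0.0011), where the probe set used gave 0.21 and did not. For Rps28, a second probe set gave −0.86 for density in VEC-positive cells and −0.85 for the interaction, beside −0.69 and −0.91. For density in VEC-null cells it gave −0.002 and did not pass, where the probe set used gave 0.22 and passed. Another, dim probe set disagreed for density in VEC-positive cells, at −0.04, and gave 0.61 in VEC-null cells, which passed. The probe set named Rps24 carries the same accession as that of Rpl7, so the identity of its signal is uncertain. A further 44 probe sets list a ribosomal protein symbol together with others, mostly near-identical copies, and are not named here. Of these, 38 were tested. In confluent VEC-positive cells 29 of them were lower and 0 higher than in sparse ones, against 23.1% and 24.6% of all probe sets. The median of the 38 was −0.76 for density in VEC-positive cells and −0.02 for density in VEC-null cells. It was −0.57 for VEC in confluent cells and 0.21 for VEC in sparse cells.

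Genes that assemble ribosomes were lower with confluence in both lines. Of 42 tested ribosome biogenesis genes, 35 fell and 1 rose with confluence in VEC-positive cells, and 34 fell and 0 rose in VEC-null cells, with medians of −0.82 and −0.92. Of all probe sets, 23.1% were lower and 24.6% higher in VEC-positive cells, and 23.5% lower and 23.2% higher in VEC-null cells. The interaction of the 42 genes was positive for 9 and negative for 7, against 14.6% and 14.1% of all probe sets, with a median of 0.15. Fbl, the methyltransferase of ribosomal RNA, read 1693 and 1567 in confluent and 3175 and 3377 in sparse VEC-positive cells (−0.99 ± 0.08), and 1708 and 1747 in confluent and 5063 and 4873 in sparse VEC-null cells (−1.50 ± 0.08). Gnl3, the nucleolar protein nucleostemin, fell by 1.77 and 1.76 in the VEC-positive and VEC-null lines.

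Myc, a transcription factor known to drive ribosome production, fell in both lines as well. It read 193.7 and 182.9 in confluent and 1301 and 1390.2 in sparse VEC-positive cells (−2.55 ± 0.11; limma, adjusted p = 1.1e-07), and 514 and 448 in confluent and 2619 and 2687 in sparse VEC-null cells (−2.35 ± 0.11). Its interaction did not pass (−0.20 ± 0.15). Mdm2, the ligase that degrades p53 and is bound by free ribosomal proteins, was higher in VEC-positive cells at both densities, by 2.80 ± 0.09 when confluent and 2.20 ± 0.09 when sparse. Both genes are from a list of 17 tested TOR, Myc and p53 regulators, which had no common direction with density. In VEC-positive cells 6 were lower and 4 higher with confluence (median 0.10), and in VEC-null cells 5 and 6 (0.02). For VEC, 4 were lower and 2 higher in confluent cells, and 4 and 4 in sparse cells. Of all probe sets, 23.1% were lower and 24.6% higher with confluence in VEC-positive cells, and 23.5% and 23.2% in VEC-null cells. For VEC the shares were 16.8% lower and 16.2% higher in confluent cells, and 20.6% and 18.3% in sparse cells. Mxd4, on the same list, was higher when confluent, with 3463 and 3236 against 995 and 879 in VEC-positive cells.

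Mitochondrial ribosomal protein genes, which serve a separate ribosome, were also more often lower than higher. Of 67 tested, 36 fell and 1 rose with confluence in VEC-positive cells (median −0.43), and 22 fell and 5 rose in VEC-null cells (−0.21). Over all probe sets 23.1% were lower and 24.6% higher with confluence in VEC-positive cells, and 23.5% lower and 23.2% higher in VEC-null cells. Among 14 tested mRNAs of other TOP genes, 10 fell and 0 rose in VEC-positive cells, and 7 fell and 3 rose in VEC-null cells. The interaction was negative for 7 of the 14 and positive for 2, against 14.1% and 14.6% of all probe sets. Tpt1, the abundant translationally controlled tumour protein, fell by 0.58 ± 0.07 in VEC-positive and rose by 0.40 ± 0.07 in VEC-null cells, and Eef1a1, which delivers aminoacyl-tRNA, fell by 0.49 ± 0.08 and rose by 0.25 ± 0.08 in the same lines. Eef2, the translocation factor, did not pass for density in either line. Genes with an Eif symbol, 38 tested, had medians of −0.27 in VEC-positive and −0.53 in VEC-null cells. They include kinases and binding proteins of initiation factors. The 9 tested genes with an Eef symbol had −0.49 and −0.35 in the same lines. Among these 9 are methyltransferases such as Eef1akmt1, so neither list holds factors only. Differences between these lists were not tested.

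**Figure D5:**
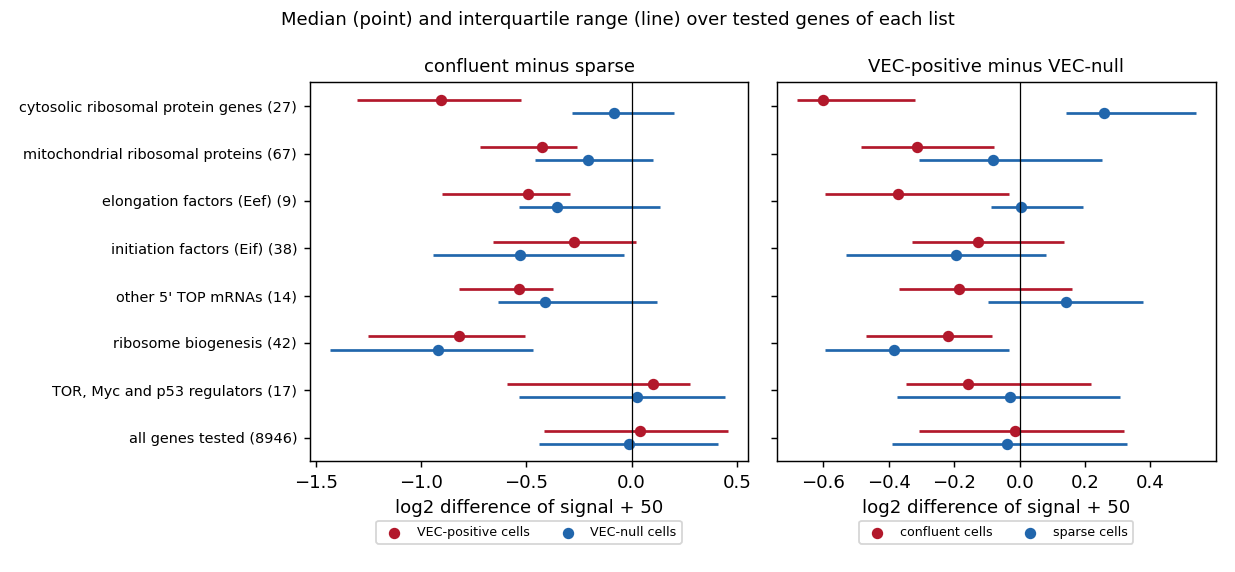
Median (point) and interquartile range (line) of the log2 difference over the tested genes of each list (vertical axis, number tested in parentheses), for confluent minus sparse cells (left) and VEC-positive minus VEC-null cells (right). Cytosolic ribosomal protein genes had medians of −0.90 in VEC-positive and −0.08 in VEC-null cells on the left. Those of ribosome biogenesis genes were −0.82 and −0.92. The Eif and Eef lists were taken by symbol and do not hold factors only.

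With the copies averaged and the 4 cRNA samples as units, VEC and density were fitted as additive terms with 1 residual degree of freedom per chip. No ribosomal protein gene passed for VEC (0 also at an unadjusted p below 0.05 in limma), where 2.04% of all probe sets did, and the median was −0.15. For density only Rps19bp1 passed, at −1.41 ± 0.29 (limma, adjusted p = 0.0024), against 4.61% of probe sets lower, and the median of the 27 genes was −0.48. At an unadjusted p below 0.05, 10 genes were lower and 1 higher. The share of all probe sets at that unadjusted threshold was not counted, so these numbers cannot be set against it. Rps19bp1 is on chip B, where the prior added 20.6 degrees of freedom, against 7.88 on chip A. At this level a response that differs between the lines counts as residual spread.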

How the data were processed

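Total RNA of 4 cell conditions was measured on 2 chip types with 2 array copies each. Per probe set, the authors deposited the MAS5 signal, a linear intensity scaled to 500, per the labels' protocols and the submitters' processing notes; no version is given in the sources used here. Of 24833 probe sets other than controls, 21414 had 1 symbol in the GEO platform annotation, and a gene was represented by its chip A probe set before chip B, then by the highest mean signal. The log2 values of signal + 50 were computed here from the deposited intensities. Models were fitted per chip with limma 3.58.1 in R 4.3.3 on 4 group means, with variances following the mean level, with Benjamini-Hochberg adjustment over both chips together (14246 kept probe sets). Each chip had 4 residual degrees of freedom. The code was tested on simulated data.

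The members and lists were chosen with earlier results of these data known. The members named were those with the 3 largest changes in each direction per comparison, those past the threshold with a log2 change of at least 1, paralogue pairs, stalk proteins and Rpsa, and other members are given in counts or by single values. Alternatives were other offsets, filters and normalisations, all probe sets of a gene, a replicate block, leaving out each copy, and, added after seeing the data, 2 narrower sets of members. Copies with the same number did not deviate together (r of −0.09 to 0.08), so numbers were not taken as pairs.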

Additional observations from a re-analysis of the deposited data

Results flagged for a closer look

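The density response differed between the lines by the interaction test for 21 of the 27 tested genes in the negative direction and for 0 in the positive one (VEC-positive minus VEC-null, limma). Among the genes named above, the log2 difference was −1.96 for Rpl13a, −1.92 for Rps13, −1.42 for Rps19, −1.38 for Rpl10a, −1.30 for Rps3, −1.27 for Rps18 and −1.23 for Rps3a1. It was −1.04 for Rpl19, −1.02 for Rps10, −1.0 for Rps7, −0.87 for Rps19bp1, −0.86 for Rpl7a, −0.86 for Rpl8 and −0.84 for Rplp0. It was −0.79 for Rpl7, −0.76 for Rpsa and −0.58 for Rps4x.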

How the results depend on the processing

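Of 1650 values of named genes under the alternatives, 1588 kept their direction and side of the threshold, 46 no longer passed, 16 newly passed and 0 reversed. With the replicate number as a block, the counts were the same as without it, 22 lower and 1 higher for density in VEC-positive cells (median −0.90) and 21 lower for the interaction (median −0.86); the block changed no call of a named gene. An offset of 200 gave a median of −0.86 for density in VEC-positive cells. Without a filter, 37 genes were tested, and density in VEC-positive cells had 2 higher genes and a median of −0.72, the interaction 1 higher gene and −0.79, and the additive density term −0.24, while the median for density in VEC-null cells reversed to 0.0712. With the filter at the 75th percentile, 22 genes remained. VEC in sparse cells then had 0 lower genes and a median of 0.36, density in VEC-positive cells 0 higher and −1.14, density in VEC-null cells 2 higher and −0.12, and the additive density term 4 lower and −0.53. With arrays centred on their median, density in VEC-positive cells had a median of −1.005, in VEC-null cells −0.14, and the additive density term 2 lower genes and −0.56. With quantile normalisation, VEC in confluent cells had 1 higher gene and a median of −0.45, VEC in sparse cells 2 lower genes, density in VEC-positive cells −0.68, the interaction −0.60, and the additive density term 2 lower genes and −0.34. With plain probe sets only, density in VEC-positive cells had −1.17, in VEC-null cells 2 higher genes and −0.14, and the additive density term −0.62. Without the 5 genes that are not standard subunits, VEC in sparse cells and the additive density term each had 0 lower genes. Leaving out 1 copy, genes lower for density in VEC-positive cells numbered 20 to 22 (median −0.94 to −0.90) and for the interaction 20 to 22 (−0.91 to −0.81). For VEC in confluent cells 18 to 21 were lower (−0.63 to −0.56), and in sparse cells 10 to 14 were higher (0.24 to 0.33). For density in VEC-null cells 5 to 9 were lower and 2 to 6 higher (−0.09 to −0.06). The causes of these changes were not tested, except that the filters change which genes are tested. Values near the background of the arrays, as for Rps13 and Rpl32, are the least precise.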
